A study of Mus musculus with 9 samples.

Results

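The genes described here are 31 mouse germline genes, known as a class that is kept silent outside the germline by methylation of its promoters, read in poly(A)+ RNA of embryonic stem cells with and without Gzf1. They were taken as the rows of the deposited count table that carry a listed gene symbol, alone or in a row that merges several symbols, which found all 31 among 30232 gene rows. Zcwpw1 is counted in a row it shares with AK137844, and reads of the pair cannot be separated. Of the 31 genes, 25 passed the filter on low counts and 6 did not (Asz1, Piwil4, Sycp2, Tdrd1, Tdrd9 and Tuba3b). DNA methylation was not measured in these libraries, so the name of the class is background and only RNA levels are given.

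The 9 libraries were 5 Gzf1 knockouts (Gzf1-KO) and 4 wild types. Knockout replicates 1 and 2 were of the RGM line and knockout replicates 3, 4 and 5 of V6.5, an established hybrid embryonic stem cell line. Wild-type replicates 1 and 2 were RGM, wild-type replicate 4 was a Cas9-GFP line and wild-type replicate 3 was V6.5. All RGM libraries were made in run2 and the others in run1, so line and run cannot be told apart. All cells had grown on irradiated fibroblast feeders in serum with LIF, and were harvested once the feeders had been depleted. Nothing in the labels says that replicates were separate clones or cultures, so every p-value here reflects library-to-library spread that may be technical. MARS-seq2.0 tags the 3' ends of polyadenylated transcripts, so counts are given as CPM, counts scaled to library size, without division by gene length, and levels are compared between libraries only. Libraries held 2568489 to 7072697 counts, with RGM libraries the shallower, and a count of 3, taken as the floor for counting error, stood at 0.412 to 1.18 CPM. All 12 embryonic stem cell markers checked, such as Pou5f1, Sox2 and Nanog, were above this floor in every library.

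Germline genes of this class have promoters rich in CpG that are methylated in somatic cells and become active when primordial germ cells erase their methylation. In pluripotent cells a second layer of repression acts on many of them, in which the proteins MGA and MAX bind the E-box letters CACGTG and E2F6 binds E2F letters, and recruit a Polycomb complex. The products serve meiosis, the piRNA pathway that silences transposons, and the gene control of developing germ cells. Embryonic stem cell cultures are known to transcribe some of these genes.

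The promoter sequences of 6 genes are shown, chosen after their values were seen. Sycp3 had the largest rise in RGM, Sycp1, Taf7l and Syce1 the 3 largest falls, Sohlh2 the largest knockout value, and Mael, after Taf7l, the smallest p in the Cas9-GFP comparison. Each is the 250 bases before the start of the gene from RefSeq on GRCm38.p6, 5' to 3' on the gene's own strand, with CACGTG and the E2F letters TTCCCGC or GCGGGAA in capitals. Sycp3 spans chr10:88459337-88459586 on the plus strand, Sycp1 chr3:102936101-102936350 on the minus strand and Mael chr1:166238745-166238994 on the minus strand. Taf7l spans chrX:134476491-134476740 on the minus strand, Syce1 chr7:140787855-140788104 on the minus strand and Sohlh2 chr3:55181794-55182043 on the plus strand.
Sycp3: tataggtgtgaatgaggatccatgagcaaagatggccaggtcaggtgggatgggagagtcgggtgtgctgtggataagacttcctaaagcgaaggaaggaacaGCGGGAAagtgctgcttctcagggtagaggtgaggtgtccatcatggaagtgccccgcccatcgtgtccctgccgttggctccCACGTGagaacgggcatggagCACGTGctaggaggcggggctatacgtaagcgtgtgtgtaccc
Sycp1: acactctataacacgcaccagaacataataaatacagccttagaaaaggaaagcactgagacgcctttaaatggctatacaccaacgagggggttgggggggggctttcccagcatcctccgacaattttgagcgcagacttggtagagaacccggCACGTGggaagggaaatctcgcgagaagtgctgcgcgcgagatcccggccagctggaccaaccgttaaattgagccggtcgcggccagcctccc
Mael: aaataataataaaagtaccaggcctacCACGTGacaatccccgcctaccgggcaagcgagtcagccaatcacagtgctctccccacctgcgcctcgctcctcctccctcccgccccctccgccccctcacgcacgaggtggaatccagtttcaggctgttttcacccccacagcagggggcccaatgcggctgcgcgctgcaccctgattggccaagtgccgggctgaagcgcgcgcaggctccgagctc
Taf7l: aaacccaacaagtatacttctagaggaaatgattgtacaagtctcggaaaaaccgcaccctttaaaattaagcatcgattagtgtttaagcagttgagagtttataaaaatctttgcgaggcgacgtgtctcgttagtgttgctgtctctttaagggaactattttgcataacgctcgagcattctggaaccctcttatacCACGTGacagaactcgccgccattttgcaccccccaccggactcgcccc
Syce1: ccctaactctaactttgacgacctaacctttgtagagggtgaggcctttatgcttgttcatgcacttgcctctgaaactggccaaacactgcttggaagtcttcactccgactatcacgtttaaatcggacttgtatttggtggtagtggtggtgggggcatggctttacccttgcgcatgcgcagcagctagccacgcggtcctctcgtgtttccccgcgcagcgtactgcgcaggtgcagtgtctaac
Sohlh2: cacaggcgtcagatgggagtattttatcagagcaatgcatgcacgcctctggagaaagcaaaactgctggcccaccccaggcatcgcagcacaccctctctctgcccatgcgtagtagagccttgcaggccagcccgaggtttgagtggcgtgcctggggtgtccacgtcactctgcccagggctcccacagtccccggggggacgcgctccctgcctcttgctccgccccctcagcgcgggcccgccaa

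The promoter of Sycp3 held CACGTG 64 and 43 bases before the start and GCGGGAA 147 bases before it. CACGTG lay 94 bases before the start of Sycp1, 49 bases before that of Taf7l and 223 bases before that of Mael. Neither set of letters was found in the windows of Syce1 and Sohlh2, which says only that these letters are not in those 250 bases. Of the 31 genes, 28 had a promoter in the RefSeq table, the others being Piwil2, Tex11 and Tex15. Searched on both strands, CACGTG was in 13 of the 28 (46.4%), against 6.05% of all 27018 promoters. The 13 were Brdt, Ddx4, Hormad1, Mael, Mov10l1, Slc25a31, Stag3, Stk31, Sycp1, Sycp3, Taf7l, Tdrd1 and Tdrd9. TTCCCGC on either strand was in 7 of the 28 (25%), against 3.83% of all promoters, and these were Ddx4, Hormad1, Rpl10l, Sycp3, Tdrd5, Tuba3a and Tuba3b. Ddx4, Hormad1 and Sycp3 held both (10.7%, against 0.326% of all promoters). TTCCCGC and GCGGGAA are the same letters on the 2 strands, and no match overlapped another in the promoters shown.

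The promoters were also denser in CpG than most. The germline genes had a median of 14 CpG in the 250 bases, with a range of 6 in Tdrd12 to 40 in Tdrd5, against a median of 6 over all promoters. The observed over expected CpG ratio had a median of 0.690, against 0.378. Counting among CpG-dense promoters only, those with at least 10 CpG, CACGTG was in 12 of 23 germline promoters and 9.49% of all 10327, and TTCCCGC in 5 of 23 and 8.31%. These counts are descriptions of a list chosen for its class and carry no test.

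**Figure D1:**
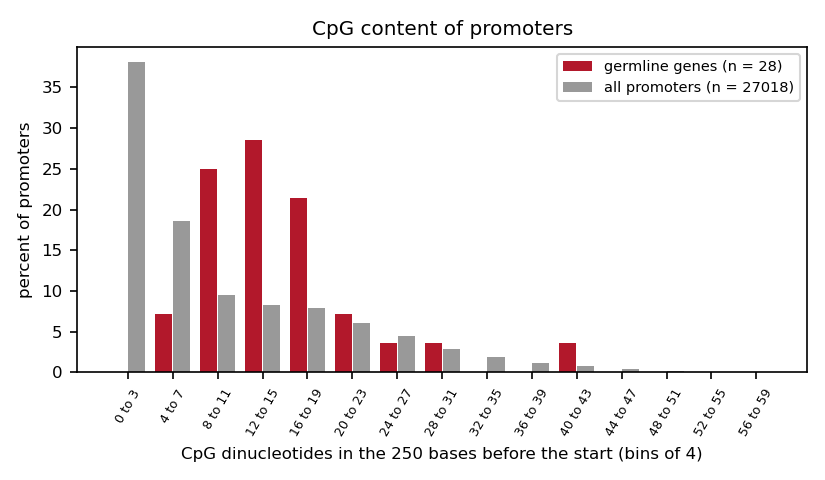
CpG content of promoters, as the percent of promoters (y axis) in bins of 4 by the number of CpG dinucleotides in the 250 bases before the start (x axis), for the 28 germline genes with a sequence (red) and all 27018 promoters (grey). No germline gene falls in the lowest bin, and the germline median is 14 CpG against 6.

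Most of the germline genes were detected in each of the 9 libraries. Of the 31 genes, 21 to 29 were above the floor of a library. Their CPM values are laid out by library in the heat map, in which the RGM and run1 blocks differ more than knockout and wild type do within a block.

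**Figure D2:**
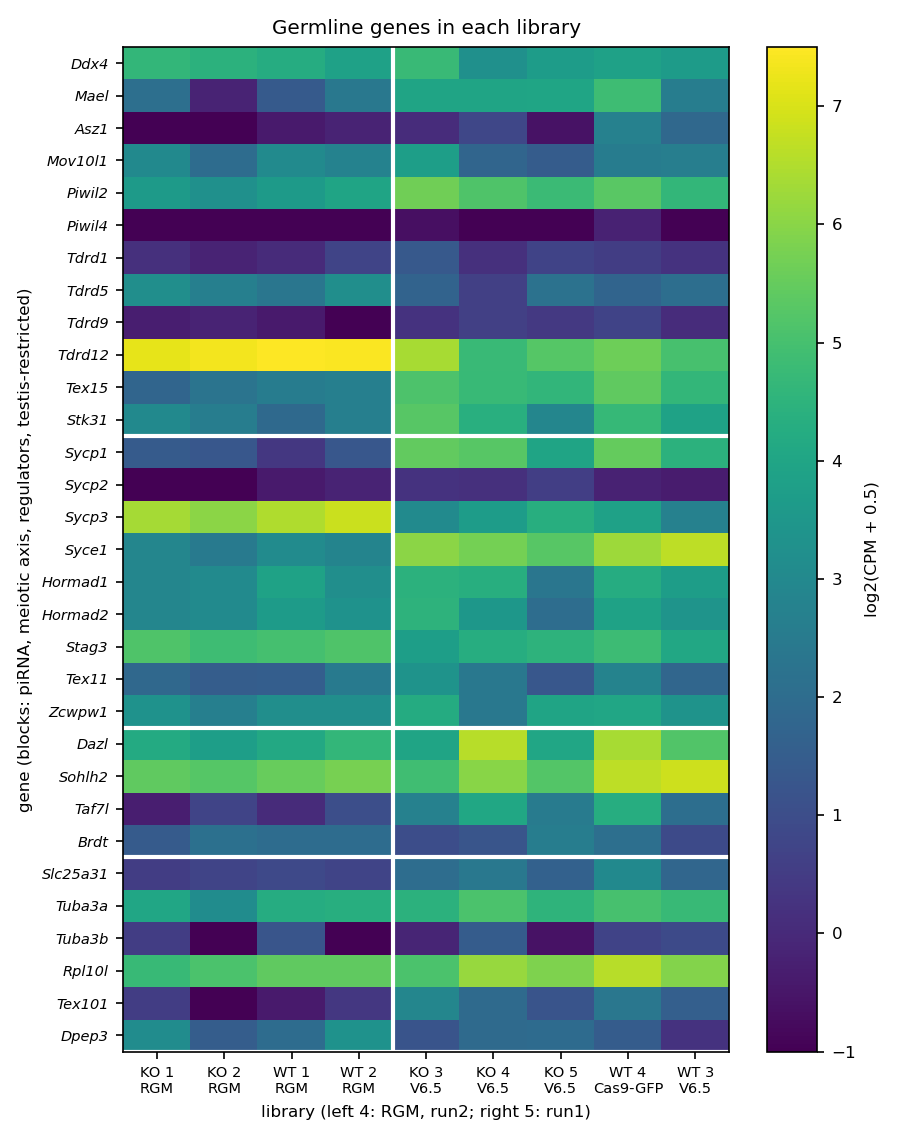
Levels of the 31 germline genes (rows, ordered by role) in the 9 libraries (columns), as log2 of CPM with 0.5 added (colour scale). RGM libraries are on the left and run1 libraries on the right, with knockouts left of wild types in each block; Sycp3 and Tdrd12 are brighter in the RGM block, and Syce1, Sycp1 and Tex15 in the run1 block.

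Germline genes differed between RGM and the run1 lines in both directions. Of the 25 tested genes, 17 passed the threshold of an adjusted p of 0.05 in RGM against run1, 5 higher and 12 lower in RGM, while 45.3% of all genes tested passed, 22.2% higher and 23.1% lower. The median log2 difference of the 25 was -0.73, against -0.02 for all 12645 genes tested. The filter set part of this: Sycp1, Taf7l, Slc25a31 and Tex101, 4 of the 12 lower genes, were kept by it only through run1, where they are high, and so could only come out lower in RGM. The same held for 17.2% of all genes called lower, and for 0 of the 5 higher genes in the other direction. Tex11, which did not pass, was also kept only through run1 and is part of the median. The counts and the median are therefore descriptions of these libraries. Because this is bulk RNA, fewer cells transcribing a gene and less RNA per cell cannot be told apart. Depth also differed with line: RGM libraries held 2568489 to 3704162 counts and run1 libraries 4872127 to 7072697.

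The genes of the meiotic chromosome axis went opposite ways. Sycp3 (chr10:88459569-88473236, mm10), a component of the lateral element of the synaptonemal complex, was at 81.0 and 64.7 CPM in the RGM knockouts and 89.0 and 114 CPM in the RGM wild types, against 7.88, 12.5 and 19.5 CPM in the run1 knockouts, 14.1 CPM in the Cas9-GFP wild type and 6.18 CPM in the V6.5 wild type. All 4 RGM libraries lay above all 5 run1 libraries, as in 19.4% of all genes, and the log2 difference was 2.85 (SE 0.30, adjusted p = 1.8e-05). Sycp1 (chr3:102818499-102936100), whose protein forms the transverse filaments that join the axes, was at 2.24 and 1.97 CPM in the RGM knockouts and 0.809 and 1.97 CPM in the RGM wild types, against 43.0, 38.4 and 15.1 CPM in the run1 knockouts, 44.7 CPM in the Cas9-GFP wild type and 21.6 CPM in the V6.5 wild type. RGM lay below run1 in every library, at 7 and 5 counts in knockouts and 3 and 5 in wild types. The log2 difference was -4.23 (SE 0.44, adjusted p = 1.2e-05). Sycp1 was tested only through run1, so its direction depends on the filter. Syce1 (chr7:140777229-140787852), a component of the central element, was at 7.05 and 5.13 CPM in the RGM knockouts and 8.09 and 6.71 CPM in the RGM wild types, against 64.7, 51.8 and 38.5 CPM in the run1 knockouts, 76.5 CPM in the Cas9-GFP wild type and 99.2 CPM in the V6.5 wild type. It too was lower in every RGM library, with a log2 difference of -3.31 (SE 0.23, adjusted p = 2.4e-07). All RGM libraries lay below all run1 libraries in 9 of the 25 germline genes and in 2433 of all 12645 genes tested. They lay above in 4 of the 25 and in 2454 of the 12645. The 9 lower genes include Sycp1, Taf7l, Slc25a31 and Tex101, which were tested only through run1. Separation of the lines was thus common among all genes. Sycp3 and Syce1, partners in 1 complex which the filter kept in each line set alone, stood near opposite ends of the list in the same libraries. Stag3 (chr5:138280240-138312393), a meiotic cohesin subunit, was at 35.2 and 28.4 CPM in the RGM knockouts and 31.0 and 35.1 CPM in the RGM wild types, against 13.0, 19.0 and 22.3 CPM in the run1 knockouts, 27.7 CPM in the Cas9-GFP wild type and 16.5 CPM in the V6.5 wild type. Its libraries did not overlap but the gap was narrow, with the Cas9-GFP wild type next to RGM knockout replicate 2, and the log2 difference was 0.71 (SE 0.21, adjusted p = 0.013), with an adjusted p of 0.063 without knockout replicate 1. Sycp3 overlaps Chpt1 on the opposite strand at its 3' end, and whether the counting used strand is not stated, so reads of the pair cannot be told apart.

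**Figure D3:**
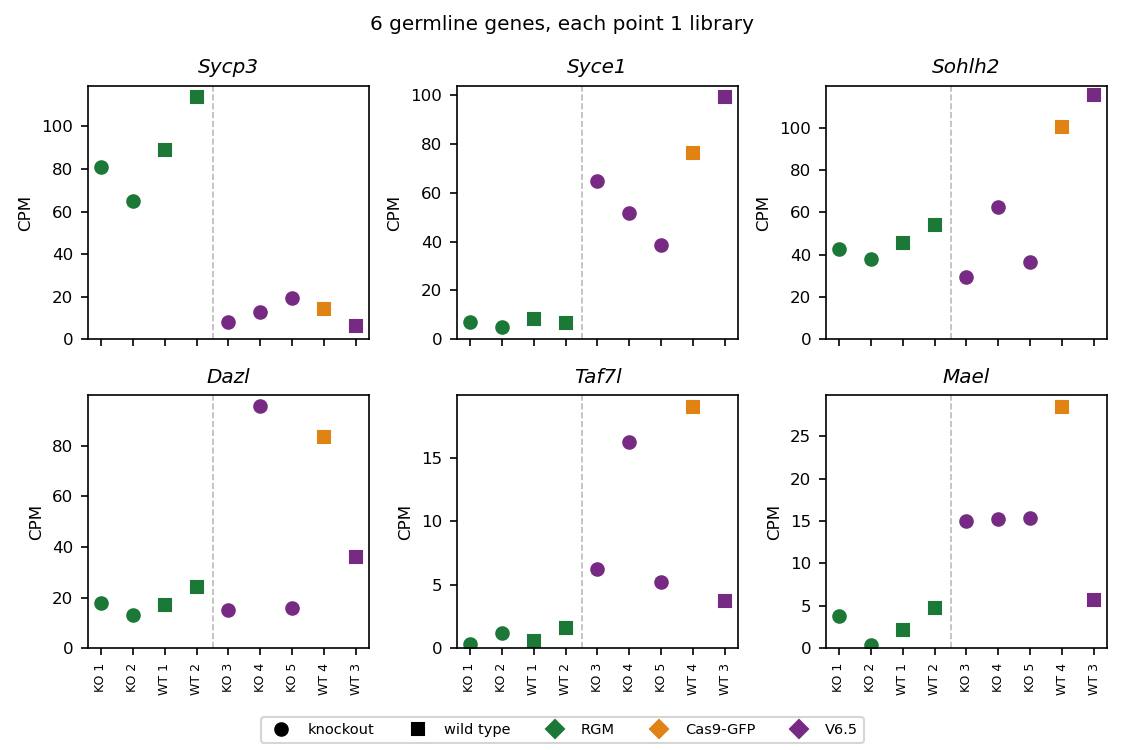
CPM (y axis, starting at 0) of Sycp3, Syce1, Sohlh2, Dazl, Taf7l and Mael in each of the 9 libraries (points), grouped by line and run with knockouts left of wild types. Sycp3 is high in all 4 RGM libraries, Syce1 in all 5 run1 libraries, Dazl in knockout replicate 4 and the Cas9-GFP wild type, and Sohlh2 in the 2 run1 wild types.

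The other 4 tested axis and recombination genes did not pass. Their log2 differences were -0.73 for Hormad1, -0.45 for Hormad2, -0.68 for Tex11 and -0.65 for the row with Zcwpw1, which Pilra overlaps on the opposite strand at its 3' end. Tex11 was tested only through run1, so its direction depends on the filter. Hormad1 and Hormad2 code for axis proteins with a HORMA domain, Tex11 for a meiotic crossover protein on the X chromosome, and Zcwpw1 for a reader of the histone marks left by PRDM9. Hormad1 ranged from 7.05 to 14.3 CPM in RGM and from 4.59 to 21.7 CPM in run1, so the lines overlapped.

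Genes of the piRNA pathway were also divided. Tdrd12 (chr7:35469098-35537745), a Tudor-domain protein needed for secondary piRNAs, was at 146 and 163 CPM in the RGM knockouts and 181 and 176 CPM in the RGM wild types, against 83.4, 26.5 and 37.9 CPM in the run1 knockouts, 49.4 CPM in the Cas9-GFP wild type and 31.9 CPM in the V6.5 wild type. Every RGM library was above every run1 library and the log2 difference was 1.87 (SE 0.29, adjusted p = 0.00034). Tdrd5 (chr1:156255296-156303664), another Tudor-domain protein of the germ granules, was at 8.65 and 5.92 CPM in the RGM knockouts and 4.58 and 8.68 CPM in the RGM wild types, against 2.77, 1.04 and 4.10 CPM in the run1 knockouts, 2.83 CPM in the Cas9-GFP wild type and 3.71 CPM in the V6.5 wild type. The RGM libraries were the higher ones without overlap, the log2 difference was 1.23 (SE 0.37, adjusted p = 0.015), and the adjusted p was 0.058 without wild-type replicate 2 and 0.077 without knockout replicate 1. Tex15 (chr8:33516738-33585582), which acts in piRNA-directed silencing of transposons, went the other way, at 2.88 and 4.34 CPM in the RGM knockouts and 5.39 and 5.92 CPM in the RGM wild types, against 34.7, 26.1 and 23.6 CPM in the run1 knockouts, 42.8 CPM in the Cas9-GFP wild type and 24.0 CPM in the V6.5 wild type. The log2 difference was -2.76 (SE 0.27, adjusted p = 3.7e-06), with no overlap. Piwil2 (chr14:70372477-70429383), a PIWI protein that binds piRNAs, was at 11.9 and 9.08 CPM in the RGM knockouts and 11.9 and 15.0 CPM in the RGM wild types, against 49.8, 35.1 and 27.5 CPM in the run1 knockouts, 39.8 CPM in the Cas9-GFP wild type and 24.3 CPM in the V6.5 wild type. RGM libraries were again the lower ones, with a log2 difference of -1.56 (SE 0.25, adjusted p = 0.00021).

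Mael (chr1:166201201-166238747), a component of the perinuclear germ granule, was at 3.84 and 0.395 CPM in the RGM knockouts and 2.16 and 4.74 CPM in the RGM wild types, against 15.1, 15.2 and 15.4 CPM in the run1 knockouts, 28.5 CPM in the Cas9-GFP wild type and 5.63 CPM in the V6.5 wild type. Every RGM library was below every run1 library, and the V6.5 wild type was the lowest of run1 and the Cas9-GFP wild type the highest. The log2 difference was -2.54 (SE 0.54, adjusted p = 0.0023). Stk31 (chr6:49395604-49469501), a germ-cell protein with Tudor and kinase domains, was at 7.69 and 5.53 CPM in the RGM knockouts and 3.23 and 5.92 CPM in the RGM wild types, against 38.9, 20.3 and 7.05 CPM in the run1 knockouts, 25.3 CPM in the Cas9-GFP wild type and 14.3 CPM in the V6.5 wild type. Its lines overlapped, since knockout replicate 5 was below RGM knockout replicate 1, and the log2 difference was -1.91 (SE 0.46, adjusted p = 0.0052). The RNA helicase genes Ddx4 and Mov10l1 did not pass, at log2 differences of 0.42 and 0.09. Of 8 tested piRNA genes, 2 were higher and 4 lower in RGM, against 22.2% and 23.1% of all genes.

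Among the regulators, Dazl and Taf7l were lower in RGM, while Sohlh2 and Brdt did not pass. Dazl (chr17:50279395-50293636), an RNA-binding protein that controls translation in germ cells, was at 17.9 and 13.0 CPM in the RGM knockouts and 17.0 and 24.1 CPM in the RGM wild types, against 14.9, 95.9 and 15.9 CPM in the run1 knockouts, 83.3 CPM in the Cas9-GFP wild type and 36.1 CPM in the V6.5 wild type. Knockout replicate 4 and the Cas9-GFP wild type stood above the other 7 libraries, which spanned 13.0 to 36.1 CPM across RGM and run1. The log2 difference of -1.48 (SE 0.55, adjusted p = 0.045) rested on few libraries: the adjusted p lay between 0.077 and 0.12 when replicate 1, 2 or 4 of either genotype was left out, and the difference was -0.83 without knockout replicate 4. Taf7l (chrX:134460118-134476490), a germ-cell relative of a TFIID subunit, was at 0.320 and 1.18 CPM in the RGM knockouts and 0.539 and 1.58 CPM in the RGM wild types, against 6.22, 16.3 and 5.24 CPM in the run1 knockouts, 19.0 CPM in the Cas9-GFP wild type and 3.71 CPM in the V6.5 wild type. RGM libraries held 1 and 3 counts in knockouts and 2 and 4 in wild types, near the floor and below all of run1. The log2 difference was -3.55 (SE 0.69, adjusted p = 0.0012), and -2.88 (adjusted p = 0.0032) without the Cas9-GFP library. Taf7l was tested only through run1, so its direction depends on the filter. Sohlh2, a bHLH transcription factor of early germ cells, had a log2 difference of -0.57 (SE 0.25, adjusted p = 0.079), and Brdt, a testis bromodomain protein, 0.24 (SE 0.47, adjusted p = 0.7).

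Testis-restricted paralogues of ubiquitous proteins were lower in RGM, together with Tex101. Rpl10l (chr12:66283379-66284401), an autosomal retrocopy of the X-linked ribosomal protein gene Rpl10, was at 25.9 and 33.9 CPM in the RGM knockouts and 42.6 and 42.2 CPM in the RGM wild types, against 33.6, 71.6 and 56.9 CPM in the run1 knockouts, 94.6 CPM in the Cas9-GFP wild type and 60.6 CPM in the V6.5 wild type. The lines overlapped, since knockout replicate 3 was below 3 RGM libraries, and the log2 difference was -0.86 (SE 0.22, adjusted p = 0.0052). Rpl10 itself averaged 31.7 CPM (20.1 to 48.0) over the libraries, and how the counting divided reads between the near-identical pair is not given, so the Rpl10l values are uncertain. Tuba3a (chr6:125278274-125286042), a testis alpha-tubulin with a near-identical copy in Tuba3b, was at 15.7 and 8.29 CPM in the RGM knockouts and 18.9 and 19.7 CPM in the RGM wild types, against 21.6, 33.6 and 22.5 CPM in the run1 knockouts, 32.4 CPM in the Cas9-GFP wild type and 25.8 CPM in the V6.5 wild type. RGM was lower without overlap, with a log2 difference of -0.84 (SE 0.23, adjusted p = 0.0083). Slc25a31 (chr3:40708855-40726096), the germ-cell mitochondrial ADP/ATP carrier, was at 0.961 and 1.18 CPM in the RGM knockouts and 1.35 and 1.18 CPM in the RGM wild types, against 3.59, 4.80 and 2.62 CPM in the run1 knockouts, 7.73 CPM in the Cas9-GFP wild type and 3.02 CPM in the V6.5 wild type. All RGM libraries were lower, at 3 and 3 counts in knockouts and 5 and 3 in wild types, with a log2 difference of -1.90 (SE 0.44, adjusted p = 0.003). Slc25a31 was tested only through run1, so its direction depends on the filter. Tex101 (chr7:24668007-24676675), a surface protein of male germ cells, was at 0.961 and 0 CPM in the RGM knockouts and 0.270 and 0.789 CPM in the RGM wild types, against 7.05, 3.34 and 1.80 CPM in the run1 knockouts, 4.71 CPM in the Cas9-GFP wild type and 2.47 CPM in the V6.5 wild type. Its RGM counts of 3 and 0 in knockouts and 1 and 2 in wild types are at or under the floor, and it was tested only through run1, so the fitted log2 difference of -2.86 depends on the prior count and its direction on the filter. Dpep3 (chr8:105973513-105979429), a testis membrane dipeptidase, was the exception in this group, at 8.33 and 2.37 CPM in the RGM knockouts and 3.50 and 9.47 CPM in the RGM wild types, against 1.80, 3.34 and 3.44 CPM in the run1 knockouts, 2.26 CPM in the Cas9-GFP wild type and 0.687 CPM in the V6.5 wild type. Its lines overlapped, and the log2 difference of 1.46 (SE 0.49, adjusted p = 0.026) did not pass without wild-type replicate 2 (adjusted p = 0.11), wild-type replicate 3 (0.082) or knockout replicate 1 (0.13). Tuba3a and Dpep3 are overlapped at their 3' ends by noncoding genes of the opposite strand.

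**Figure D4:**
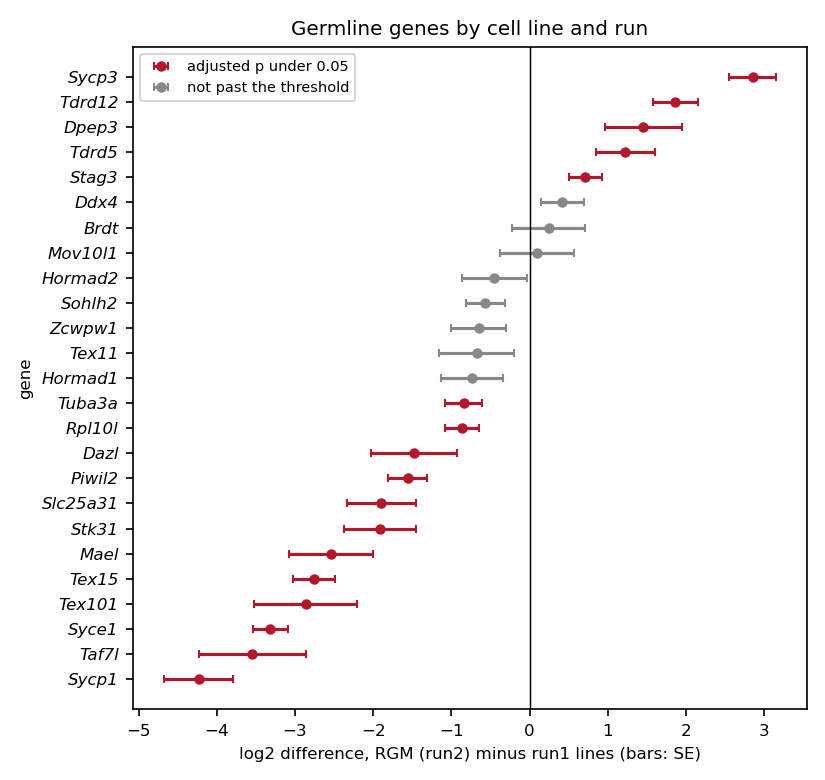
Log2 difference between RGM and run1 libraries (x axis) with its SE (bars) for the 25 tested germline genes (rows), with genes past an adjusted p of 0.05 marked. The 5 genes to the right of 0 that passed include Sycp3 at 2.85 and Tdrd12 at 1.87, and the 12 to the left reach -4.23 in Sycp1. Of these 12, 4 (Sycp1, Taf7l, Slc25a31 and Tex101) were tested only through run1.

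Leaving out each library in turn, 13 to 19 germline genes passed, while 4446 to 6113 of all genes did. Of the 17, 13 passed in every such fit in which they were tested. The 4 that did not were Dazl, Dpep3, Stag3 and Tdrd5. The 13 include Sycp1, Taf7l, Slc25a31 and Tex101, which were tested only through run1, so their passing adds no support. Markers of the fibroblast feeders moved with the line as well: of 28 tested, 21 were higher and 1, Twist1, lower in RGM, against 22.2% and 23.1% of all genes. All 29 markers had a count in 8 of the 9 libraries, with Lum at 0 in the V6.5 wild type. Their summed level was 4459.8 and 6754 CPM in the RGM knockouts and 5599 and 5022 CPM in the RGM wild types, against 3587, 2956 and 2646 CPM in the run1 knockouts, 2522 CPM in the Cas9-GFP wild type and 3056 CPM in the V6.5 wild type. Their part in the germline differences was not tested.

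Within run1 the Cas9-GFP wild type had germline RNA above the V6.5 wild type in most genes, although none passed singly. In the fit, 22 of 25 germline genes were higher in Cas9-GFP and 3 lower, while 51.8% of all genes were lower. The median log2 difference was 0.49, against -0.02 for all genes. No germline gene passed in edgeR or DESeq2, and in edgeR 0% of all genes did. At an unadjusted p under 0.05 there were 2 germline genes, and 3.99% of all genes. These were Taf7l at 1.99 (SE 0.80, unadjusted p = 0.028, adjusted p = 0.959) and Mael at 1.68 (SE 0.72, unadjusted p = 0.037, adjusted p = 0.959). Set directly against each other, the Cas9-GFP library was above the V6.5 wild type in 21 of 25 genes. The median difference was 0.75 on the log2 scale, against -0.0009 for all genes. Against the same V6.5 wild type, the V6.5 knockout replicates 3, 4 and 5 stood at medians of 0.76, 0.44 and -0.09. The Cas9-GFP line is 1 library, assumed in the fit to vary like the others. Without the V6.5 wild type the median difference was 0.23, with 15 of 25 genes above 0, so the shift depended on that wild type as well. Feeder markers had 24 of 28 values lower in Cas9-GFP, with a median of -0.29 and 0 passing, and their part was not tested.

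Gzf1, the targeted gene, was at 5.45, 14.2, 1.66, 9.40 and 5.24 CPM in knockout replicates 1 to 5, against 28.6, 30.0, 8.11 and 18.7 CPM in wild-type replicates 1 to 4. Knockout and wild type overlapped across lines, but every knockout library except replicate 4 lay below both wild types of its own run. The log2 fold change was -1.45 (SE 0.42, adjusted p = 0.9998), so it did not pass, and 3' tags outside an edited part need not report the edit. The knockout comparison asks whether losing Gzf1, a zinc-finger protein studied in this series at the Dlk1-Dio3 imprinted region, moved these genes.

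No germline gene passed in the knockout against wild type over all 9 libraries. The count was 0 of 25 in edgeR, against 0.0316% of all genes, all 4 of them lower, and 0 in DESeq2. The median log2 fold change of the 25 was -0.08, with 16 below 0, against 0.01 for all genes, 47.4% of which were below 0. At an unadjusted p under 0.05 there were 3 of 25 (12%), against 2.32% of all genes. No germline gene had knockout and wild-type libraries that did not overlap, where 0.245% of all genes were lower and 0.198% higher without overlap. Feeder markers had 22 of 28 values above 0 in this comparison, with a median of 0.15 and 0 passing, and their part was not tested.

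The 3 were Sohlh2, Syce1 and Rpl10l. Sohlh2 (chr3:55182028-55209957) was at 42.6, 37.9, 29.3, 62.7 and 36.6 CPM in knockout replicates 1 to 5, against 45.3, 54.1, 116 and 100.5 CPM in wild-type replicates 1 to 4. The knockouts were lower than the wild types within each run, with a wider gap in run1, and the log2 fold change was -0.91 (SE 0.24, unadjusted p = 0.0024, adjusted p = 0.9998). Syce1, whose levels stand above, had -0.63 (SE 0.20, unadjusted p = 0.0068, adjusted p = 0.9998). Its run1 knockouts lay below both run1 wild types, while the RGM libraries overlapped. Rpl10l had -0.52 (SE 0.21, unadjusted p = 0.027, adjusted p = 0.9998). Slc25a31 came next in size at -0.47 (SE 0.39, unadjusted p = 0.246, adjusted p = 0.9998), and Dazl stood at -0.46 (SE 0.52, unadjusted p = 0.392, adjusted p = 0.9998). The Dazl value was -1.28 without knockout replicate 4 and -0.10 without the Cas9-GFP wild type. Sycp3 and Tdrd12, the genes with the largest rises in RGM, had knockout values of -0.05 and 0.06.

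Within RGM, most germline genes had knockout values a little below 0, and 0 of 25 passed in edgeR, against 0% of all genes, and 0 in DESeq2. The median log2 fold change was -0.30 with 20 of 25 below 0, against 0.01 and 48.6% for all genes, and 0 of 25 had an unadjusted p under 0.05, against 0.822% of all genes. An edgeR fit to the RGM libraries alone, chosen after seeing the data, tested 20 of the genes and put 3 under that p, against 5.99% of all genes. These were Sycp3 at -0.47 (adjusted p = 0.54), Rpl10l at -0.52 (adjusted p = 0.62) and Tuba3a at -0.66 (adjusted p = 0.77), so none passed. In 9 genes both knockouts were below both wild types (16.6% of all genes), namely Hormad1, Hormad2, Piwil2, Rpl10l, Sohlh2, Sycp3, Tdrd12, Tex15 and Tuba3a. Among these, Piwil2 was at 11.9 CPM in both knockout replicate 1 and wild-type replicate 1. Both knockouts were above both wild types in Ddx4 (18% of all genes), while in Sycp1 knockout replicate 2 and wild-type replicate 2 tied at 5 counts each. The values in this group were -0.67 for Tuba3a, -0.66 for Tex15, -0.51 for Rpl10l and -0.47 for Sycp3, and Sohlh2 stood at -0.30 (SE 0.32, unadjusted p = 0.364, adjusted p = 1).

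The RGM shift was carried by knockout replicate 2 and wild-type replicate 2, and the median was -0.18 without either one, against -0.46 without knockout replicate 1. Knockout replicate 2 was the lowest of the 4 RGM libraries in 13 of 25 genes (26.4% of all genes) and wild-type replicate 2 the highest in 11 (25.9%). The median log2 difference was -0.43 between those 2 libraries, with 21 of 25 genes lower in the knockout, and -0.02 between knockout replicate 1 and wild-type replicate 1, with 13 lower. Knockout replicate 2 set against knockout replicate 1 gave -0.32, within the same genotype. The same library held the highest sum of feeder markers, 6754 CPM. The part of feeder RNA in the RGM shift was not tested.

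Within run1 no common direction was seen. The count was 0 of 25 passing in edgeR, against 0.0158% of all genes. The median was -0.04 with 13 of 25 below 0, against 0.02 and 47.6% for all genes, and 2 of 25 had an unadjusted p under 0.05, against 3.84% of all genes. Knockouts were below both wild types in 2 genes, Sohlh2 and Syce1 (7.1% of all genes), and above both in 0 (6.42%). Sohlh2 had the smallest p, at -1.34 (SE 0.27, unadjusted p = 0.00026, adjusted p = 0.816). It passed in DESeq2 (-1.35, adjusted p = 0.0195), without the filter on low counts (-1.34, adjusted p = 1.6e-05) and without knockout replicate 4 (-1.72, adjusted p = 0.0065). Syce1 stood at -0.77 (SE 0.24, unadjusted p = 0.0071, adjusted p = 0.9995).

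The direction of the other genes in run1 depended on which wild type was used. Against the V6.5 wild type alone, the median log2 difference was 0.76 for knockout replicate 3, 0.44 for knockout replicate 4 and -0.09 for knockout replicate 5. Against the Cas9-GFP wild type the values were -0.24, -0.48 and -0.88. In the fit without the Cas9-GFP library, the median knockout value in run1 was 0.38 with 20 of 25 genes above 0, and without the V6.5 wild type it was -0.31 with 21 below 0. Over all libraries the median was 0.09 and -0.31 in the same 2 fits, and it was also 0.09 with cell line in place of run as a term. Knockout replicate 3 was the highest of the 5 run1 libraries in 10 of 25 genes (19.18% of all genes), knockout replicate 5 the lowest in 10 (25.1%), and the Cas9-GFP wild type the lowest in 0 (17.0%). Only the V6.5 wild type shares its line with the run1 knockouts.

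**Figure D5:**
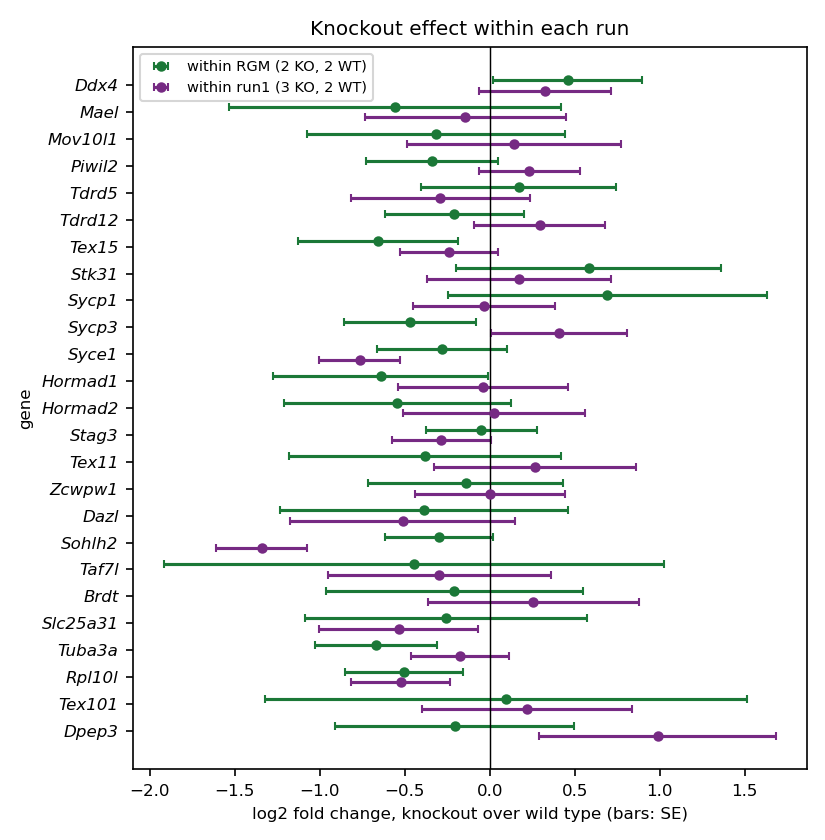
Log2 fold change of knockout over wild type (x axis) with its SE (bars) for the 25 tested germline genes (rows), within RGM and within run1. Most RGM points lie just left of 0 (20 of 25), run1 points lie on both sides (13 of 25 left of 0), and Sohlh2 in run1 is the lowest at -1.34.

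The test of a difference of the knockout effect between runs was not passed by any germline gene (0 of 25 passing in edgeR, against 0% of all genes, and 0 in DESeq2). Sohlh2 had the one unadjusted p under 0.05, at 1.04 (SE 0.42, unadjusted p = 0.027, adjusted p = 1) for the RGM effect minus the run1 effect, against 1.44% of all genes under that p.

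The 6 genes below the filter are given as raw counts. Asz1 (chr6:18050964-18109061), a germ-granule protein of the piRNA pathway, had 0, 0, 4, 6 and 1 counts in knockout replicates 1 to 5, against 1, 1, 23 and 33 counts in wild-type replicates 1 to 4. Most of its 69 counts were in the 2 run1 wild types, with 33 in Cas9-GFP and 23 in V6.5. In an unfiltered edgeR fit its knockout value was -2.87 over all libraries (adjusted p = 0.0041) and -2.84 in run1 (adjusted p = 0.016). Unfiltered DESeq2 gave -2.77 (unadjusted p = 0.0014, adjusted p = 0.9998), so the call belonged to 1 tool, and fitted values of a gene this near 0 depend on the prior count. Between lines the unfiltered fit gave -3.86 for RGM against run1 in edgeR (adjusted p = 4.1e-05) and -3.65 in DESeq2 (adjusted p = 0.0027), with all RGM libraries at 0 or 1 count, at which no size can be given.

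The remaining low genes had few counts in any library. Tdrd1, a Tudor-domain scaffold for PIWI proteins, had 2, 1, 15, 3 and 7 counts in knockout replicates 1 to 5, against 2, 3, 5 and 5 counts in wild-type replicates 1 to 4. Tdrd9, a helicase with a Tudor domain, had 1, 1, 5, 5 and 5 counts in knockout replicates 1 to 5, against 1, 0, 4 and 6 counts in wild-type replicates 1 to 4. Sycp2, the axis partner of Sycp3, had 0, 0, 5, 3 and 6 counts in knockout replicates 1 to 5, against 1, 1, 2 and 2 counts in wild-type replicates 1 to 4. Knockout and wild-type counts overlapped in all 3, and Sycp2 did not share the RGM level of its partner. Tuba3b had 3, 0, 3, 11 and 1 counts in knockout replicates 1 to 5, against 7, 0, 10 and 6 counts in wild-type replicates 1 to 4. Piwil4, a nuclear PIWI protein, had 1 count in knockout replicate 3, 2 counts in the Cas9-GFP wild type and 0 in the other libraries. At these counts a difference was not detectable.

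Genes that act on the promoters of the class were also compared between lines, where 45.3% of all genes passed. Of 24 tested repressors, 5 were higher and 5 lower in RGM, near the shares of 22.2% and 23.1% of all genes. None of the repressors passed in the knockout comparison of all libraries, where 1 (4.17%) had an unadjusted p under 0.05, against 2.32% of all genes. The de novo methyltransferase Dnmt3b was higher in RGM with a log2 difference of 1.04 (SE 0.19, adjusted p = 0.00052), and the maintenance methyltransferase Dnmt1 with 0.52 (SE 0.11, adjusted p = 0.0018). Lower in RGM were Kdm5c, a histone demethylase, at -1.18 (SE 0.14, adjusted p = 2.5e-05), and E2f6, whose protein reads the E2F letters, at -0.74 (SE 0.19, adjusted p = 0.0052). Of 13 tested demethylation factors and germline activators, 3 were higher and 5 lower in RGM, against 22.2% and 23.1% of all genes. The 5-methylcytosine oxidase Tet2 was lower at -1.41 (SE 0.21, adjusted p = 0.00012) and Stra8, the inducer of meiosis, at -2.84 (SE 0.49, adjusted p = 0.00069), while Dppa3 was higher at 1.95 (SE 0.41, adjusted p = 0.0024). Dppa2, an activator of germline genes in embryonic stem cells, was lower at -1.27 (SE 0.20, adjusted p = 0.00017).

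Of 34 other meiosis and germ cell genes, 20 were tested, with 4 higher and 7 lower in RGM, against 22.2% and 23.1% of all genes. Msh5 and Msh4, which form the crossover clamp of meiosis, were higher at log2 differences of 2.71 (SE 0.39, adjusted p = 8.6e-05) and 1.89 (SE 0.44, adjusted p = 0.0033). Over the libraries Msh5 ranged from 0.687 to 9.87 CPM and Msh4 from 0.328 to 5.13 CPM. Their lowest values are near or under the floor, so the sizes are uncertain. Piwil1, the PIWI protein of late spermatogenesis, was lower at -4.07 (SE 0.75, adjusted p = 0.00063), and Fkbp6, a co-chaperone of the piRNA pathway, at -2.36 (SE 0.61, adjusted p = 0.0085). Piwil1 ranged from 0 to 8.79 CPM over the libraries, so it reached 0 and its fitted size is not reliable. Whether the filter kept genes of this list only through RGM or only through run1 was not looked at singly, so their directions may depend on it. None of the genes of these last 2 lists passed in the knockout comparison of all libraries in edgeR, and 0 had an unadjusted p under 0.05.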

How the data were processed

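Poly(A)+ RNA of 9 libraries was read by MARS-seq2.0, and the authors deposited a table of raw counts per gene symbol. The submitters' processing notes list STAR, DESeq2 and mm10, with no roles. The counter, its annotation, its use of strand, and whether reads or molecular identifiers were counted are not stated there. Of 30324 deposited rows, 92 spike-in rows holding 1 count in all were left out, and 9860 gene rows had no count. A chi-square test of counts found every pair of libraries that share genotype and run to differ beyond sampling noise, so none was treated as a library deposited more than once. This does not show separate cultures.

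Counts were filtered with filterByExpr (minimum count 10, genotype as group), which left 12645 rows, and scaled by TMM. The test was edgeR's quasi-likelihood F test with robust fitting (edgeR 4.0.16 under R 4.3.3), with Benjamini-Hochberg adjustment over all tested rows. Every p given without another tool's name is from edgeR. Run and genotype were the terms over all libraries, and contrasts within runs, between lines and for Cas9-GFP against V6.5 came from fits to all 9 libraries with a shared spread. The SE was derived from the fold change and F (its size over the root of F), the prior count was 0.125, and CPM used TMM-scaled sizes. Floors cover counting error only. Positions are from GENCODE on GRCm38, which is mm10. DESeq2 1.42.0, RLE scaling, no filter, other terms and leaving out each library were the alternatives, with an RGM-only fit, unfiltered fits of the 6 low genes and the filter applied to each line set alone added after seeing the data. On simulated counts the all-library fit recovered 62.2% of genes changed 2-fold and 98.9% of those changed 4-fold (12458 genes). The line comparison recovered 65.7% and 95.9% (12447 genes), and the Cas9-GFP comparison 15.3% and 54.2% (12459 genes). The changed genes were drawn at random from all tested genes, and no other run or line difference was simulated. These shares therefore need not hold for the germline genes.

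The 31 genes and the other lists were chosen with earlier results of these data known. Full values are given for genes past the threshold in any comparison, the 6 tested genes of highest mean CPM and the 4 of largest knockout change over all libraries, and up to 4 genes are named from each other list. Rpl10, Twist1, Lum and further genes named singly were chosen after their values were seen.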

Additional observations from a re-analysis of the deposited data

Results flagged for a closer look

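In 4 of the 50 combinations of a tested gene and a genotype, 1 library stood apart from the rest of its genotype by Dixon's criterion, which chance meets in about 1 of 20. Dazl was highest in knockout replicate 4 at 95.9 CPM, where the other knockouts held 13.0 to 17.9 CPM. Dpep3 was highest in knockout replicate 1 at 8.33 CPM, against 1.80 to 3.44 CPM in the other knockouts. Mael was highest in the Cas9-GFP wild type at 28.5 CPM, with the other wild types at 2.16 to 5.63 CPM. Brdt was lowest in the V6.5 wild type at 1.37 CPM, with the other wild types at 3.50 to 3.77 CPM. The groups mix lines, and the causes were not tested.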

How the results depend on the processing

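Between RGM and run1, 17 germline genes passed with RLE scaling, in DESeq2 and without merged rows, and 21 without the filter. With a library left out 13 to 19 passed, and 4446 to 6113 of all genes. Uncalled values changed sign with a library left out, spanning -0.026 to 0.65 for Brdt and -0.094 to 0.69 for Mov10l1. For the knockout over all libraries, 4 genes of the table passed, against 7 in DESeq2, 35 without the filter (2 of them germline, Asz1 and Sohlh2), 2 without a run term, 2 with cell line in place of run and 2 to 4 with a library left out. Tdrd12 stood at -0.26 without a run term, and with cell line Sycp3 at 0.061 and Slc25a31 at 0.087. With a library left out, Tdrd12 spanned -0.26 to 0.18, Sycp3 -0.33 to 0.12 and Slc25a31 -0.82 to 0.085. Within RGM, 0 genes passed, against 2 in DESeq2, 7 without the filter, 9 in the RGM-only fit and 0 to 1 with a library left out, none of them germline. Within run1, 2 genes passed, against 4 in DESeq2 (1 germline, Sohlh2), 46 without the filter (2 germline) and 0 to 8 with a library left out (0 to 1 germline). There the germline median spanned -0.31 to 0.38, Dazl -1.95 to 0.21, Slc25a31 -1.08 to 0.27, Sycp3 -0.092 to 1.10 and Tdrd12 -0.33 to 0.64. The difference between runs had 1 gene passing and a germline median of -0.46 without the filter, and -0.64 to 0.23 with a library left out. Cas9-GFP against V6.5 had 27 genes passing without the filter and 0 to 1 with a library left out, and could not be fitted without the Cas9-GFP library. The cause of these shifts was not tested.

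Replicate numbers recur in both genotypes. The correlation of deviations was -0.05 for the RGM pairs, 0.29 for replicates 3 and 0.32 for replicates 4. Knockout replicates 3 and 4 correlated best with the wild type of their own number, and each RGM knockout with the other number. Deviations within a genotype and run of 2 libraries mirror each other, so these values cannot decide on pairing. Replicate 4 differs in line between genotypes, and the numbers were not taken as pairs. With the replicate block 6 genes passed, 0 of them germline, and the germline median was 0.01. Shallow RGM libraries and the single Cas9-GFP library set the limits: fitted differences of genes near 3 counts have no reliable size, and methylation was not measured.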
